A study of Homo sapiens with 8 samples.

Results

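The transcripts described here come from 8 imprinted genes of the human genome: SNRPN, SNHG14, KCNQ1OT1, PEG10, MEST, IGF2, H19 and CDKN1C. They were taken as a list of known imprinted genes and looked up by name in the gene annotation. A gene assembled by the authors was given the name of the annotated gene on its strand whose span it matched best, at a Jaccard index (shared length over joint length) of at least 0.5. Of the 8 genes, 6 had a row of their own among the 62635 genes of the short-read table. The other 2, SNRPN and SNHG14, were inside a single merged row. All 8 had named transcripts among the 301869 transcripts of the long-read table.

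The RNA came from HAP1, a near-haploid human line derived from a chronic myeloid leukemia, and no treatment or edited allele is named for any library. Nuclei were stripped with a buffer of urea and detergent and spun, which gave a pellet (chromatin fraction) and a supernatant (nucleoplasm fraction). ERCC standards, 92 synthetic RNAs at known ratios, went into each fraction ahead of extraction, and ribosomal RNA was removed. There were 3 chromatin and 3 nucleoplasm libraries of directional Illumina reads from 3 cultures, and 2 chromatin libraries of nanopore cDNA reads. One label names chromatin for all 8 libraries, so the fractions were read from the sample titles. In bulk RNA of this kind, fewer expressing cells and less RNA per cell cannot be told apart.

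Imprinted genes are expressed mainly from the copy inherited from one parent. The choice is set by DNA methylation laid down in the egg or sperm, and long noncoding RNAs made inside imprinted domains are often part of the silencing of their neighbours. KCNQ1OT1 is the textbook case, a very long unspliced antisense RNA that stays near its site of transcription, whereas H19 is a spliced and polyadenylated noncoding RNA. The comparison therefore asks how transcripts of the same domains were divided between chromatin and the soluble part of the nucleus. The line is near-haploid, and the tables hold neither allelic information nor the copy number of these loci. These data therefore cannot show from which parent the copy that was read came.

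The start regions of 3 of these genes are shown to place the rows measured below. In each, every CG (a C followed by a G, the main site of methylation in mammalian DNA) is in capitals. The CG motif reads the same on both strands, so a single count covers both. The sequences are RefSeq promoter windows of GRCh38.p14, 300 bases each, read 5′ to 3′ on the strand of the gene, from 250 bases before to 50 bases after an annotated start. Windows were found for 4 of the 8 genes (SNRPN, SNHG14, MEST and H19).
SNRPN chr15:24954737-24955036, plus strand: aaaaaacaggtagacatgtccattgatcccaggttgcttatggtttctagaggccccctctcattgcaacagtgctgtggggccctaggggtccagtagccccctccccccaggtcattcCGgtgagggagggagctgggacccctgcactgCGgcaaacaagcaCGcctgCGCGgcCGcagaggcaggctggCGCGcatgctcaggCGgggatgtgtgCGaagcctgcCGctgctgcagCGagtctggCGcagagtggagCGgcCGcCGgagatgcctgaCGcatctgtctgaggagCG
MEST, upstream start, chr7:130485925-130486224, plus strand: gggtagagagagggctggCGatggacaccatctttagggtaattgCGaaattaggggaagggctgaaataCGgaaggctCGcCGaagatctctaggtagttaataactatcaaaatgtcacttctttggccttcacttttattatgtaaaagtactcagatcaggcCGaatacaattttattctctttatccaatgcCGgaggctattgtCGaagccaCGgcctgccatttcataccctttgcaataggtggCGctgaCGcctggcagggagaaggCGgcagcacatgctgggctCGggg
MEST, downstream start, chr7:130491835-130492134, plus strand: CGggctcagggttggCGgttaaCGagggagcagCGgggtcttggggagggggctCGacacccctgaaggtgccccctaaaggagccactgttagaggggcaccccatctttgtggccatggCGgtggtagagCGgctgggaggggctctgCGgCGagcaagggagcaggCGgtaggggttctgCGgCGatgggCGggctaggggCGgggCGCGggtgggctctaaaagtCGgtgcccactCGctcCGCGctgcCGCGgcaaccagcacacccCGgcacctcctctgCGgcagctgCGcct
H19 chr11:2001217-2001516, minus strand: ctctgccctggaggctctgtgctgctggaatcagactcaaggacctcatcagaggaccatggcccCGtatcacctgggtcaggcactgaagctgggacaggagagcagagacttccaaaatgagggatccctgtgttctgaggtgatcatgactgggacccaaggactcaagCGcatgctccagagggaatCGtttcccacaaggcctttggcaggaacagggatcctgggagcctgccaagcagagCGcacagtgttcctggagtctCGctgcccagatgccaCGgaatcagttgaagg

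The SNRPN window shown held 18 CG, and 44.5% of the 35116 RefSeq promoter windows held as many or more. Windows at other annotated starts of SNRPN, not shown, held fewer (7, 2 and 11 CG). The upstream MEST window held 13 CG (51.7% of all windows held as many or more) and the downstream window held 25 (32%). Other MEST windows, not shown, held 22, 16 and 22. The H19 window held 6 CG (66.3%), and the median of all windows was 14. These counts describe the letters of the reference and not its methylation in HAP1. The upstream MEST window contains position 130486171, where the short-read MEST row began, and the H19 window contains position 2001470, where the H19 row began.

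A pair of the genes also carry a microRNA within their spans, MIR675 in an exon of H19 and MIR335 in an intron of MEST. Their mature sequences are shown with the seed (bases 2 to 8) in capitals, from RefSeq.
hsa-miR-675-5p: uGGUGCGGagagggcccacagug
hsa-miR-675-3p: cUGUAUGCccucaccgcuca
hsa-miR-335-5p: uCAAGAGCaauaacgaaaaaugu
hsa-miR-335-3p: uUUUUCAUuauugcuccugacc

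The 4 seeds all differ from each other. In the short-read table, the row with the coordinates of the MIR675 hairpin (chr11:1996759-1996831) held 1 read in each of the 6 libraries. The row of the MIR335 hairpin (chr7:130496111-130496204) held 1, 0 and 1 reads in chromatin and 0 reads in each nucleoplasm library. Both were at or under the floor of 3 reads, so no fold is given for either, and such libraries do not capture mature microRNAs.

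The short-read values were counts divided by a size factor, called normalized counts here. All of them came out as whole multiples of the value of 1 read, which gave 38895027 to 43804918 reads per library in chromatin and 75737601 to 79523938 in nucleoplasm. A floor of 3 reads stood at 3.29 to 3.60 normalized counts in chromatin and at 2.53 to 2.63 in nucleoplasm. ERCC standards took 78755 to 104881 reads in chromatin and 43455 to 56721 in nucleoplasm, so the relative amount of RNA per fraction depended on the scaling chosen. MALAT1, a chromatin-associated noncoding RNA, was higher in chromatin (log2 fold change 3.09) and GAPDH, a glycolysis mRNA, in nucleoplasm (-2.35), as the titles had it. Of 5 leukocyte markers (PTPRC, CD33, MPO, SPI1 and ITGAM), 4 were at 0 reads in all 6 libraries, and CD33 reached at most 5 reads.

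All 6 genes with a row of their own were tested, and in each the 3 chromatin libraries and the 3 nucleoplasm libraries did not overlap. KCNQ1OT1 was higher in chromatin. It qualified for the test, at 10 normalized counts in 3 libraries, through the chromatin libraries alone and could hardly have come out otherwise. PEG10, MEST, IGF2, H19 and CDKN1C were higher in nucleoplasm. These 6 differences passed an adjusted p under 0.05 (limma on log2(normalized count + 1), adjusted over all 26066 tested genes), 1 of the 6 towards chromatin and 5 of the 6 towards nucleoplasm. Among all tested genes 44.2% passed towards chromatin and 45.2% towards nucleoplasm, so a difference of some size was the rule. Libraries of the 2 fractions did not overlap in 90.6% of all tested genes, 44.6% with chromatin the higher and 46% with nucleoplasm the higher.

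The authors' own threshold was 4-fold. At 4-fold and an adjusted p under 0.05, 1 of the 6 genes was called in chromatin (KCNQ1OT1), against 21.2% of all tested genes, and 0 in nucleoplasm, against 8.47%. The chromatin call is no evidence about imprinted genes, since KCNQ1OT1 qualified for the test through its chromatin libraries alone. The count of 0 came from limma. edgeR and DESeq2 on the recovered reads also called 0 in nucleoplasm, against 8.31% and 7.53% of all genes, while 5 of the 6 genes were lower in chromatin at an unadjusted p under 0.05. At a minimum of 2-fold, 4 of these genes were called in nucleoplasm (PEG10, MEST, H19 and CDKN1C), against 26.9% of all tested genes.

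**Figure D1:**
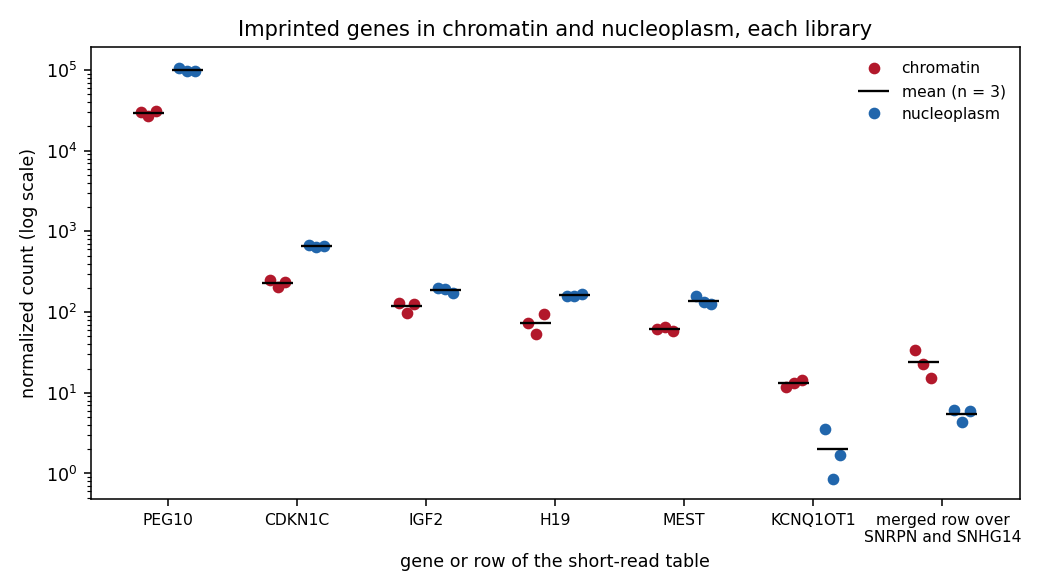
Normalized counts (log axis) of each short-read library for the 6 imprinted genes with a row of their own and for the merged row over SNRPN and SNHG14; points are libraries, bars are means (n = 3 per fraction). The nucleoplasm points lie above the chromatin points in 5 genes and below them in KCNQ1OT1 and in the merged row, and PEG10 stands far above the rest, between 26693 and 106273.

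KCNQ1OT1 (ENSG00000269821, chr11:2608328-2699994, minus strand) runs antisense inside KCNQ1, a potassium channel gene, and takes part in silencing of the 11p15 domain. It had 11.6, 13.2 and 14.3 normalized counts in chromatin (10, 11 and 13 reads) and 3.51, 0.861 and 1.69 in nucleoplasm (4, 1 and 2 reads). Nucleoplasm replicates 2 and 3 were under the floor of 3 reads, and every chromatin library was above it. Its log2 fold change, chromatin over nucleoplasm, was 2.31 with an SE of 0.38 (limma adjusted p = 0.000383). In all, 34 reads in chromatin stood against 7 in nucleoplasm, a depth-corrected ratio of 6.50 with a 95% interval of 2.84 to 17.4 (exact conditional binomial, counting error only). The gene passed the filter of 10 normalized counts in 3 libraries through the chromatin libraries alone, so a test could find it higher in chromatin and hardly otherwise. Its call is therefore given as a value and not as evidence about imprinted genes. Among 3438 tested lncRNA genes 70.1% had a lower fold change than KCNQ1OT1, and the median lncRNA stood at 1.53.

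Spread over its annotated 92625 exon bases, KCNQ1OT1 had the lowest level of the 6 genes. It had 0.141 ± 0.0143 normalized counts per kb in chromatin and 0.0218 ± 0.0146 in nucleoplasm (SD, n = 3). With a pseudocount of 5 its log2 fold change was 1.38, and with ERCC totals equalized it was 1.28, both under 4-fold and both past an adjusted p of 0.05 by limma. The only long-read transcript of KCNQ1OT1 had 0.114 and 0.0206 TPM in the chromatin libraries.

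CDKN1C (chr11:2883213-2885775, minus strand) encodes p57, an inhibitor of cyclin-dependent kinases, and lies in the same domain as KCNQ1OT1. It had 253, 204 and 235 normalized counts in chromatin and 678, 636 and 662 in nucleoplasm. All nucleoplasm libraries lay far above all chromatin libraries. In log2 terms the fractions differed by -1.52 (SE 0.09; adjusted p = 3.85e-07 by limma), a level 2.86-fold higher in nucleoplasm. Of 12493 tested protein-coding genes 14.5% had a lower fold change, and their median was -0.39.

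IGF2 (chr11:2129112-2141238, minus strand) encodes insulin-like growth factor 2, a fetal growth factor. It had 130, 97.3 and 125 normalized counts in chromatin and 199, 192 and 172 in nucleoplasm. The highest chromatin library was still under the lowest nucleoplasm library. Its log2 difference between fractions was the smallest of the 6 in size, at -0.68 with an SE of 0.13 (limma adjusted p = 0.000963). When library totals were equalized it was -0.22 and no longer passed (limma adjusted p = 0.113). It lay inside the bulk of mRNAs, with 39.7% of protein-coding genes lower.

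H19 (chr11:1995176-2001470, minus strand) is a noncoding RNA that shares enhancers and a control region with IGF2 and is the host of MIR675. It had 73.4, 52.8 and 94.4 normalized counts in chromatin and 159, 160 and 166 in nucleoplasm. The chromatin libraries were the more spread (73.5 ± 20.8 against 162 ± 4.07, SD, n = 3), and none reached a nucleoplasm library. Chromatin over nucleoplasm, H19 stood at -1.17 on the log2 scale (SE 0.19; adjusted p = 0.000385 by limma). Within its class, 3.11% of the tested lncRNA genes had a lower fold change, and 9.77% of the class passed towards nucleoplasm at any fold, against 76.3% towards chromatin. KCNQ1OT1, the other noncoding gene of the list that could be tested, stood above 0, but it passed the filter through the chromatin libraries alone. No contrast between H19 and KCNQ1OT1 is drawn from this. Chromatin replicate 2 had the lowest value of its group in H19, IGF2, CDKN1C and PEG10, and it also had the fewest reads (38895027). Without it the 4 genes still passed towards nucleoplasm.

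PEG10 (chr7:94656325-94669695, plus strand) derives from a retrotransposon and encodes Gag- and Gag-Pol-like proteins that are needed in the placenta. It had 29926, 26693 and 31516 normalized counts in chromatin and 106273, 96507 and 97980 in nucleoplasm. The values lay far above those of every other gene of the list. On the log2 scale PEG10 stood at -1.77 (SE 0.07; adjusted p = 5.88e-08 by limma), or 3.42-fold higher in nucleoplasm, and 9.03% of protein-coding genes were lower. Per kb of exon, PEG10 reached 4392 ± 367 normalized counts in the chromatin libraries and 14988 ± 787 in the nucleoplasm libraries (SD, n = 3).

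MEST (chr7:130486171-130506465, plus strand) encodes a protein of the alpha/beta hydrolase fold. It had 61.7, 64.9 and 58.2 normalized counts in chromatin and 157, 133 and 127 in nucleoplasm. The fractions were well apart, with the widest spread among the nucleoplasm libraries. MEST stood at -1.15 on the log2 scale (SE 0.12; adjusted p = 1.77e-05 by limma), with 24.2% of protein-coding genes lower. A noncoding row on the opposite strand within MEST (ENSG00000270823) had 26.8, 22.8 and 38.4 normalized counts in chromatin and 4.39, 4.30 and 5.07 in nucleoplasm, or 2.41 on the log2 scale (SE 0.25; adjusted p = 2.20e-05 by limma). This row was named after its values were seen, and it passed the filter through the chromatin libraries alone.

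**Figure D2:**
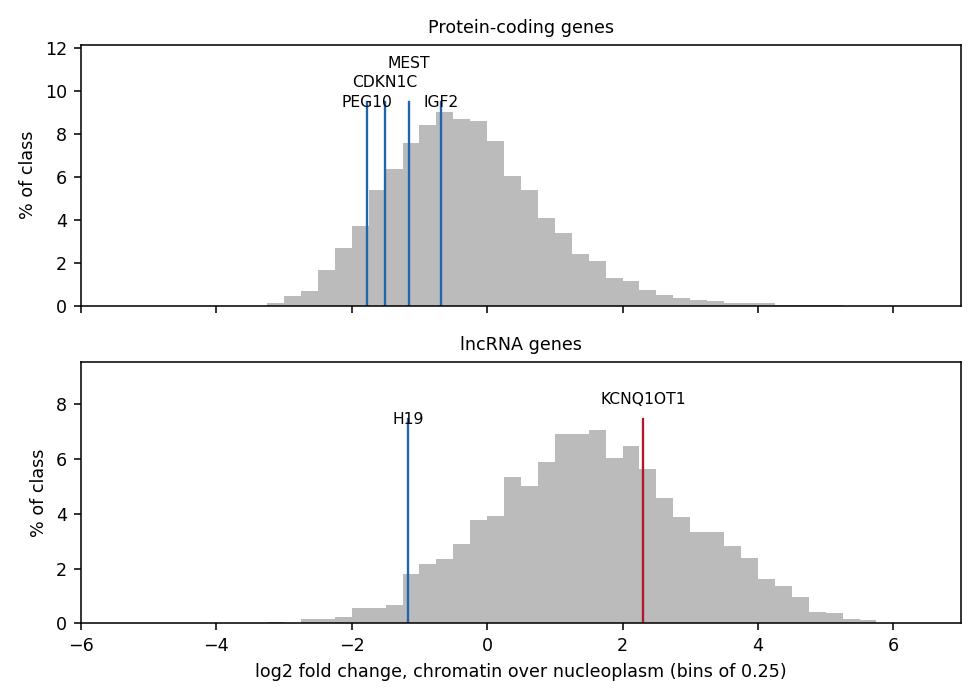
Share of tested genes (% of class) by log2 fold change, chromatin over nucleoplasm, in bins of 0.25, for 12493 protein-coding and 3438 lncRNA genes; vertical lines mark imprinted genes. The 4 mRNAs lie in the left part of their class, H19 lies in the left tail of the lncRNAs and KCNQ1OT1 lies right of their median of 1.53.

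Ordered by level per kb of exon in chromatin, the genes ran PEG10, CDKN1C (93.0), H19 (21.2 ± 6.0), IGF2 (16.5 ± 2.49), MEST (12.9) and KCNQ1OT1 (0.141). Only the neighbours H19 and IGF2 overlapped between libraries. In nucleoplasm the order was PEG10, CDKN1C (266), H19 (46.7), MEST (29.1 ± 3.38), IGF2 (26.3 ± 1.94) and KCNQ1OT1 (0.0218), and MEST and IGF2 overlapped. The rows of IGF2 and H19 covered only part of the annotated genes (Jaccard index 0.41 and 0.67), while their levels were divided by all annotated exon bases (7146 and 3462), so the order among IGF2, H19 and MEST is uncertain. PEG10, CDKN1C and KCNQ1OT1 held the same places in both fractions.

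SNRPN encodes SmN, a core spliceosome protein, and SNHG14 is the long host transcript of the SNORD115 and SNORD116 snoRNAs that runs on, antisense, into UBE3A. Neither had a row of its own. Both lay in 1 assembled row, chr15:24126593-25420336 on the plus strand, which spanned 1294 kb and held 96 annotated genes of that strand, 84 of them snoRNAs. By the naming rule this row was PWRN1, a noncoding gene of the same domain (Jaccard index at least 0.5), and it matched SNRPN at 0.12 and SNHG14 at 0.34. Its reads cannot be assigned to a gene inside it. The row had 33.8, 22.8 and 15.4 normalized counts in chromatin (29, 19 and 14 reads) and 6.14, 4.30 and 5.91 in nucleoplasm (7, 5 and 7 reads). Nucleoplasm was just above the floor of 3 reads, and every chromatin library was above every nucleoplasm library.

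On the log2 scale the merged row stood at 1.90 with an SE of 0.32 (limma adjusted p = 0.000430), under 4-fold, and the read ratio was 4.37 with a 95% interval of 2.58 to 7.74 (exact conditional binomial, counting error only). It passed the filter through the chromatin libraries alone. Set to the same ERCC total it was 0.70 and no longer passed (limma adjusted p = 0.0929). For a locus of this size these were few reads: 62 over all chromatin libraries and 19 over all nucleoplasm libraries. Short-read signal over SNRPN and SNHG14 was therefore low in both fractions and near the floor in nucleoplasm.

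Smaller rows inside the spans of the imprinted genes added little. On the strand of SNHG14, 16 rows lay within its span, 1 of them above 0, with at most 2 reads in a library. SNRPN had 1 such row (at most 1 read), MEST 4 (at most 1 read), IGF2 3 (at most 5 reads), and KCNQ1OT1, PEG10 and CDKN1C had 0. H19 had 1, the MIR675 row. None of these rows passed the filter, so none was tested.

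Other rows on chromosome 15 were well covered. RPL5P1, a processed pseudogene of a ribosomal protein gene inside an intron of SNRPN and on the opposite strand, had 268, 243 and 280 normalized counts in chromatin and 1579, 1663 and 1725 in nucleoplasm (log2 fold change -2.65, limma adjusted p = 1.12e-08). Reads from the parent gene could be counted there, so its level is uncertain. An unnamed row at chr15:25320818-25331167 on the minus strand, opposite SNHG14 and next to the 3′ end of UBE3A, had 887, 948 and 1018 normalized counts in chromatin and 9.65, 11.2 and 18.6 in nucleoplasm. This is a log2 difference of 6.12, with an SE of 0.21 (limma adjusted p = 2.37e-08). Both rows were picked after their values were seen. UBE3A itself, a ubiquitin ligase gene imprinted in neurons, had 15500, 17767 and 16354 in chromatin and 14829, 14553 and 14700 in nucleoplasm, or 0.17 on the log2 scale (SE 0.06; adjusted p = 0.0206 by limma).

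**Figure D3:**
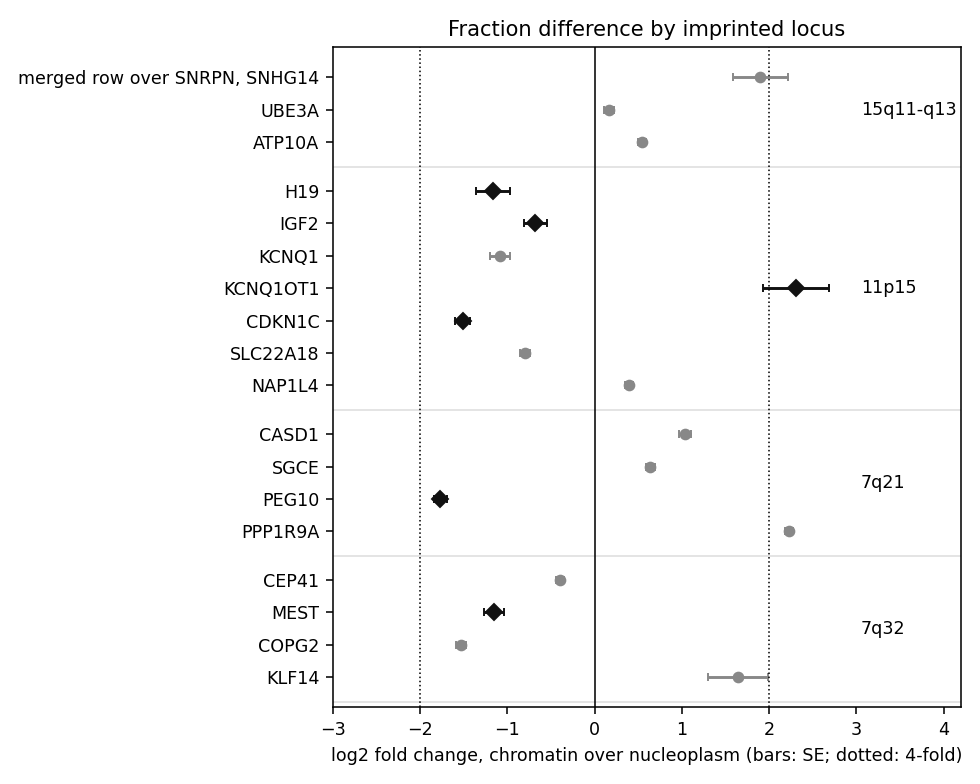
Log2 fold change, chromatin over nucleoplasm, with its SE for the tested genes listed for the 4 imprinted loci. Black diamonds are the imprinted genes described here, grey circles the merged row and the other listed genes of each locus, and dotted lines 4-fold. Within 11p15 KCNQ1 and CDKN1C stand at -1.09 and -1.52, and KCNQ1OT1, which passed the filter through chromatin alone, stands at 2.31. Within 7q21 PEG10 stands at -1.77 while its listed neighbours lie between 0.64 and 2.23.

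Neighbours within a domain were divided between the fractions in different ways. KCNQ1, the host of KCNQ1OT1 on the other strand, had 87.3, 79.3 and 69.2 normalized counts in chromatin and 168, 159 and 175 in nucleoplasm (log2 fold change -1.09). SGCE, an epsilon-sarcoglycan gene with its start next to that of PEG10, had 6535, 7491 and 6993 in chromatin and 4516, 4550 and 4415 in nucleoplasm (0.64, limma adjusted p = 6.31e-06). COPG2, a coat protein gene whose 3′ end meets MEST, had a log2 fold change of -1.53, on the same side as MEST.

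Ratios of normalized count + 1 between 2 genes of a library depend little on its scaling where both genes are well above 1. They were formed for 5 of 7 planned pairs, since SNHG14 to SNRPN and SNHG14 to UBE3A could not be formed. The log2 ratio of KCNQ1OT1 to KCNQ1 was 3.39 higher in chromatin (2.42 with a pseudocount of 5 in place of 1), and that of KCNQ1OT1 to CDKN1C 3.82 higher (2.88 with a pseudocount of 5). Both rest on 1 to 4 reads of KCNQ1OT1 per nucleoplasm library. This gene passed the filter through chromatin alone and its value was known. Both ratios are therefore given as values, and no p of theirs is used as evidence. The ratio of PEG10 to SGCE was 5.32-fold lower in chromatin, with log2 ratios of 2.19, 1.83 and 2.17 in chromatin against 4.56, 4.41 and 4.47 in nucleoplasm. The ratio of MEST to COPG2 differed by 1.30-fold (higher in chromatin) and that of H19 to IGF2 by 1.40-fold (lower in chromatin). In the last 3 pairs the libraries of the fractions were apart, and the exact two-sided permutation p was 0.1 in each (n = 3 per fraction), before and after Benjamini-Hochberg adjustment over all 5 pairs. This is the smallest p that 3 against 3 libraries can give.

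Of 67 other imprinted or neighbouring genes listed by symbol, 6 had no matching symbol in the annotation, 54 had a row and 29 were tested. Of these 29, 16 passed an adjusted p under 0.05 towards chromatin, 9 towards nucleoplasm and 4 did not pass (BLCAP, IGF2R, HERC3 and HM13), beside 44.2% and 45.2% of all tested genes in the 2 directions. Their median log2 fold change was 0.39, against -0.02 over all tested genes, and under the same ERCC total it was -0.93, with 3 genes towards chromatin and 20 towards nucleoplasm (22.7% and 64.8% of all tested genes under that scaling). The 16 and the median include KLF14, HYMAI and the merged row, counted as PWRN1. All of these passed the filter through chromatin alone and could hardly go the other way. The merged row also spans SNRPN and SNHG14, so it is not separate from the genes described above. Of the 29, 3 were called at 4-fold in chromatin and 0 in nucleoplasm, where 21.2% and 8.47% of all tested genes were called. These were PPP1R9A, an actin-binding neurabin gene of 7q21 (2.23, SE 0.05), MEG8, a noncoding RNA of 14q32 (2.1, SE 0.13), and HYMAI.

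HYMAI, a noncoding RNA of the imprinted PLAGL1 domain, had 16.3, 18.0 and 12.1 normalized counts in chromatin and 1 read in each nucleoplasm library, at least 5.99-fold higher in chromatin against a floor of 3 reads per library. It too passed the filter through chromatin alone.

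By locus, with the authors' factors, all 3 tested genes among those listed for 15q11-q13 were towards chromatin (the merged row, UBE3A, and ATP10A at 0.54). So were the 3 listed beside PEG10 in 7q21 (CASD1 at 1.04, SGCE and PPP1R9A). Under the same ERCC total UBE3A (-1.16), ATP10A (-0.78) and SGCE (-0.69) passed an adjusted p under 0.05 towards nucleoplasm by limma. CASD1 (-0.28) did not pass, and neither did the merged row (0.70). PPP1R9A (0.90) still passed towards chromatin. In 11p15, KCNQ1 and SLC22A18, a transporter gene (-0.80), were towards nucleoplasm, while NAP1L4, a histone chaperone gene, stood at 0.39 with the authors' factors and at -0.93 under the same ERCC total, past the adjusted threshold in both. In 7q32, COPG2 and CEP41, a centrosomal protein gene (-0.40), were towards nucleoplasm and KLF14, an intronless transcription factor gene (1.64, SE 0.34), towards chromatin. KLF14 also passed the filter through chromatin alone, and under the same ERCC total it was 0.47 and did not pass (limma adjusted p = 0.295). Outside these loci, MEG3, a noncoding RNA of 14q32, had 140, 195 and 153 normalized counts in chromatin and 70.2, 67.1 and 34.6 in nucleoplasm (1.54, limma adjusted p = 0.000541). DLK1, the growth regulator of the same domain, had 3.49, 13.2 and 11 in chromatin and 22.8, 22.4 and 28.7 in nucleoplasm (-1.48, limma adjusted p = 0.00892). Within 14q32, then, the noncoding RNAs MEG3 and MEG8 were higher in chromatin and the mRNA of DLK1 in nucleoplasm. DLK1 rested on 3, 11 and 10 reads in chromatin, with replicate 1 at the floor of 3 reads. RTL1, another protein-coding gene of 14q32, had means of 4.62 in chromatin and 5.13 in nucleoplasm and was not tested. MEG3 was 0.23 under the same ERCC total and did not pass.

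The fold changes moved with the scaling of the libraries. The median of all tested genes was -0.02 with the authors' size factors, 0.44 when library totals were equalized and -1.33 when ERCC totals were equalized. With the authors' factors 21.2% of genes were called at 4-fold towards chromatin and 8.47% towards nucleoplasm. These shares were 25.6% and 3.83% with equal totals, and 11.9% and 34.4% with equal ERCC totals. With the same ERCC total, PEG10 (-3.10), CDKN1C (-2.83), H19 (-2.47) and MEST (-2.46) were called in nucleoplasm, IGF2 stood at -1.99 and KCNQ1OT1 at 1.28. The directions of all 6 genes were the same under the 3 scalings, though KCNQ1OT1 had passed the filter through chromatin alone. Relative to the median of all genes, PEG10 stood at -1.75, -1.75 and -1.77, H19 at -1.15, -1.15 and -1.15, and KCNQ1OT1 at 2.33, 2.23 and 2.61 under the authors' factors, equal totals and equal ERCC totals.

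**Figure D4:**
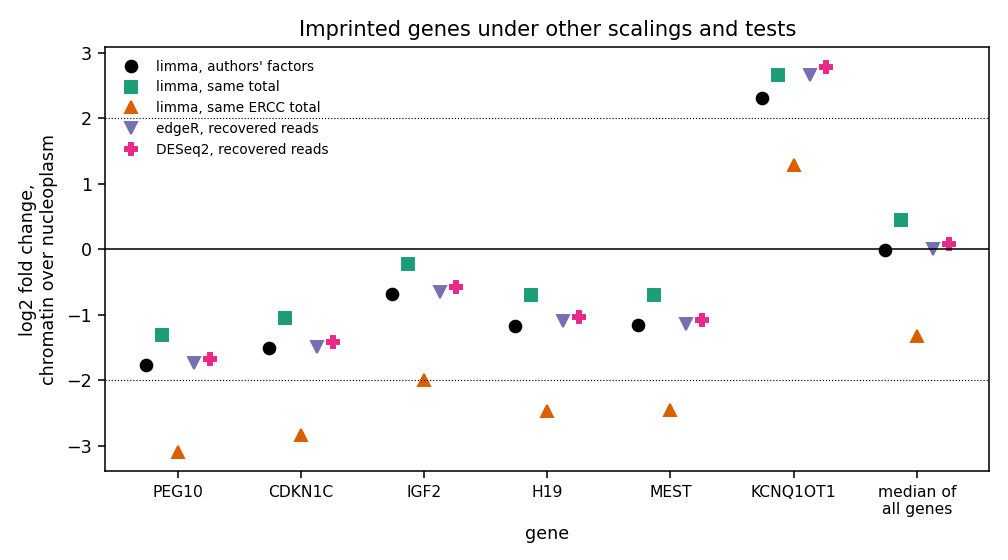
Log2 fold change, chromatin over nucleoplasm, of the 6 imprinted genes and of the median of all tested genes under 3 scalings (limma) and 2 count models on recovered reads; dotted lines mark 4-fold. The same ERCC total moves all genes down together, with the median at -1.33, and no gene changes sign.

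In the long-read table, in TPM, a share of all transcripts of a library, PEG10 was again the highest of the 8, at 32.5 and 52.7 TPM summed over its transcripts. Nearly all of it was 1 transcript, ENST00000482108, at 32.1 and 52.5 TPM, whose span is that of the short-read row. CDKN1C had 6.14 and 20.9 TPM, SNHG14 5.57 and 3.33, H19 4.94 and 2.04, and IGF2 1.28 and 1.67. The 2 libraries thus differed by up to several-fold for a gene, and with 2 libraries of 1 fraction there was no test. Among 29312 genes above 0, the mean TPM of PEG10 exceeded that of 93.6%, CDKN1C 78.4%, SNHG14 59.5%, H19 55.2% and IGF2 39.5%. The level and place of SNHG14 are uncertain, since all of its transcripts above 0 ended within UBE3A on the other strand.

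SNRPN was listed at 0 in both long-read libraries for all 12 of its transcripts. MEST was listed at 0 in replicate 1 and at 0.345 TPM in replicate 2, there as the sum of ENST00000341441 (0.119 TPM, start at 130486171 in the upstream window shown above) and a shorter internal transcript (0.226 TPM). H19 had 5 transcripts above 0, and none of them was above 0 in both libraries. Of 142 SNHG14 transcripts, 3 were above 0, all in both libraries, and all ended at chr15:25420973, within the UBE3A row (25333728 to 25439051) on the other strand. The highest, ENST00000656420, had 2.69 and 2.60 TPM. UBE3A had 99.6 and 51.5 TPM in the same libraries. Whether this table was made from reads with assigned strands is not given in the sources used here, so long-read signal of SNHG14 and of UBE3A cannot be told apart over that stretch. Inside MALAT1, an assembled transcript on the opposite strand had 3000 and 1654 TPM, beside 2908 and 1715 for MALAT1 itself. Inside NEAT1 such a transcript had 106 and 68.4 TPM, beside 58.9 and 50.7 for NEAT1, while inside GAPDH it was at 0 in both libraries. A long-read transcript without a reference name within the span of SNRPN, annotated on its strand, had 219 and 151 TPM and lay over RPL5P1.

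**Figure D5:**
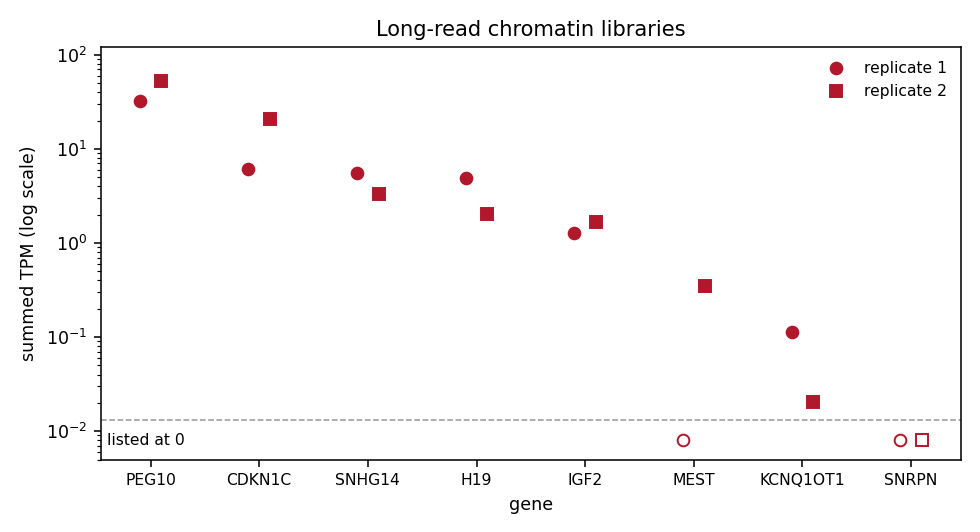
Summed TPM (log axis) of each imprinted gene in the 2 long-read chromatin libraries; circles are replicate 1, squares replicate 2, and open symbols under the dashed line are genes listed at 0. PEG10 is highest at 32.5 and 52.7 TPM, KCNQ1OT1 is lowest of the genes above 0 in both libraries, and SNRPN is listed at 0 in both. The SNHG14 points cannot be told apart from signal of UBE3A on the other strand.

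For each tested gene, the 2 named genes with the nearest profile were found by Euclidean distance between log2(normalized count + 1) values over the 6 libraries, centred on their mean, among 13779 candidates. KCNQ1OT1 was nearest to PBX3-DT (distance 0.257) and RASSF10, and H19 to PPP1R1A (0.202) and BCAN. PEG10 was nearest to BPNT1 (0.0608) and SEC23A, and CDKN1C to LACTB2 (0.0343) and YWHAG. MEST was nearest to FAM117B (0.129) and TMEM229B, and IGF2 to BSPRY (0.117) and SERTAD4. Within a distance of 0.2 lay 297 candidates for PEG10, 339 for CDKN1C, 12 for MEST, 17 for IGF2 and 0 for H19 and KCNQ1OT1. Where many candidates were that close, the 2 named genes are not particular partners.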

How the data were processed

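HAP1 chromatin and nucleoplasm RNA was measured in 8 libraries. Per the labels, HISAT2 2.1.0, StringTie, DESeq2 and minimap2 were used on hg38. The authors assembled short reads with StringTie guided by GENCODE, merged the assemblies and deposited one normalized signal per gene and library, the gene count over a DESeq2 size factor. For long reads the deposited unit is TPM, per transcript. Because counts came from StringTie coverage, a recovered read is an estimate.

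Short-read values were divided by the value of 1 read; 100% came out whole (tolerance 0.001). Tested genes spanned over 200 bases and reached 10 normalized counts in 3 or more libraries, ERCC standards left out. The test was limma 3.58.1 in R 4.3.3, with the trended variance option, on log2(normalized count + 1), a scale that understates changes of low genes, with Benjamini-Hochberg adjustment. Calls needed an adjusted p under 0.05 and over 4-fold. Names and positions are from GENCODE release 44. The fit was tested on simulated data. Count models on the recovered reads (edgeR 4.0.16, DESeq2 1.42.0), further filters, pseudocounts, scalings, fold minimums and name rules, a replicate block and the omission of single libraries served as alternatives.

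Named were the 8 genes, every tested gene of the listed loci and of the other imprinted and marker lists that the text needed, and the 2 nearest profiles per gene. The genes and lists were chosen with earlier results of these data known, among them the value of KCNQ1OT1.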

Additional observations from a re-analysis of the deposited data

How the results depend on the processing

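The direction of all 6 imprinted genes was the same in every alternative run in which the gene was tested. For KCNQ1OT1 this carries little weight, since it passed the main filter through the chromatin libraries alone. Over these runs, the log2 fold change ranged from 1.28 to 2.79 for KCNQ1OT1, -3.10 to -1.31 for PEG10, -2.46 to -0.70 for MEST, -1.99 to -0.22 for IGF2, -2.47 to -0.71 for H19 and -2.83 to -1.05 for CDKN1C. The number called in chromatin was 0 in place of 1 with a pseudocount of 5, with a filter at a mean of 50 (which removed KCNQ1OT1, so that 0 genes passed towards chromatin at any fold) and with the same ERCC total. The number called in nucleoplasm was 4 in place of 0 with the same ERCC total and with a 2-fold minimum. Under the same ERCC total the other listed genes had 3 towards chromatin, 20 towards nucleoplasm and a median of -0.93. IGF2 did not pass with the same total (-0.22, limma adjusted p = 0.113), nor the merged row with the same ERCC total (0.70, limma adjusted p = 0.0929). With a pseudocount of 5 the log2 ratio difference was 2.42 for KCNQ1OT1 to KCNQ1 (3.39 with 1) and 2.88 for KCNQ1OT1 to CDKN1C (3.82). At a Jaccard minimum of 0.3 the mean long-read level of MEST was 0.610 TPM in place of 0.173, and the merged row still took the name PWRN1. Over all genes, calls in nucleoplasm were 2208 with the authors' factors, 999 with the same total and 8968 with the same ERCC total, and calls in chromatin 5531, 6672 and 3107.

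Same-numbered libraries hardly deviated together (correlations of deviations 0.0871, 0.0533 and 0.0626), although each library correlated best with its own number. With the replicate block 1 of the 6 genes was called in chromatin and 0 in nucleoplasm, as without it, and the exact sign-flip p of the paired ratios was 0.25, the smallest 3 pairs can give. Depth limited KCNQ1OT1 and the merged row most, and the long-read table holds no depth.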
